A study of Mus musculus with 6 samples.

Results

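The genes described here are 10 members of the Notch pathway: the receptors Notch1, Notch2, Notch3 and Notch4, the ligands Jag1, Jag2 and Dll1, and the target genes Hes1, Hey1 and Heyl. They were chosen by name and matched to the deposited tables by Ensembl number. They are 10 of the 51826 genes in each table, and all 10 passed the low-count filter that left 14652 genes for testing. RNA was sequenced from mouse embryonic fibroblasts (MEFs), the mesenchymal cells that grow out of dissociated embryos. The strain was C57BL/6 and the labels give a passage range of 2 to 5. The groups were 3 cultures with both copies of Lztr1 (Lztr1 +/+, wild-type, numbered 10, 12 and 16) and 3 cultures heterozygous for Lztr1 (Lztr1 +/-, numbered 11, 15 and 18). The LZTR1 protein brings RAS-family GTPases to a CUL3 ubiquitin ligase. The sources used here give neither the structure of the mutant allele nor the age of the embryos. The labels do not say whether each culture is a separate embryo. The p-values therefore measure only how these 6 cultures vary, and some of that variation may be technical.

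Notch receptors are single-pass membrane proteins that bind Jagged or Delta-like ligands on a neighbouring cell. Binding exposes the receptor to cleavage by an ADAM protease and then by gamma-secretase, which frees the intracellular domain to enter the nucleus. There it joins the DNA-binding protein RBPJ and a Mastermind coactivator and switches on genes of the HES and HEY families, which encode basic helix-loop-helix repressors. In mesenchymal cells the pathway is known for restraining muscle and bone differentiation and, through Notch3 and Jag1, for its part in the coat of blood vessels.

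Hes1 and Heyl encode repressors that differ in a short motif near the carboxy terminus, through which HES proteins recruit corepressors of the TLE family. The last 60 coding bases of Hes1 and Heyl, ending with the stop codon, are shown 5′ to 3′ from the GENCODE transcripts (GRCm38, the assembly of mm10), with the codons of this motif, or of its counterpart in Heyl, in capitals.
Hes1, chr16:30067369-30067428, plus strand: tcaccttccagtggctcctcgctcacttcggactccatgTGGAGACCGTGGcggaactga
Heyl, chr4:123246571-123246630, plus strand: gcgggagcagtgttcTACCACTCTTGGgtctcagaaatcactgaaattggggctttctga
The codons in capitals differ between these genes. They are followed by 6 coding bases before the stop codon in Hes1 and 30 in Heyl.

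Promoter windows, from 250 bases before to 50 bases after the start of the gene, were taken from RefSeq (GRCm38.p6), and 7 of the 10 genes matched, with 8 windows, while Hes1, Hey1 and Heyl did not. The windows of Jag1 and Notch3 are shown because these are the ligand and the well-expressed receptor with the widest difference between the genotypes. Those of Hes5 and Hey2, relatives of the targets, are shown as the 2 relatives whose windows hold the letters bound by RBPJ more than once. Capitals mark the core letters of the RBPJ site, TGGGAA, or their reverse complement TTCCCA in Hes5 and Hey2, and the GC box letters GGGCGG or their reverse complement CCGCCC in Notch3. The Jag1 window holds neither and has no capitals.
Jag1, chr2:137116471-137116770, minus strand: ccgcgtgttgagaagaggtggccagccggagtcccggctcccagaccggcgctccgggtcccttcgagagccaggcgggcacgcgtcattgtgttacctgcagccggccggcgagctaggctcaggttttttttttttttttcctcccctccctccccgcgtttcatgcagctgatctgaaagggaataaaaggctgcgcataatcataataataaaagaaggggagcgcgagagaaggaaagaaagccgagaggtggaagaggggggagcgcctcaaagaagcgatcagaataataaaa
Notch3, chr17:32166841-32167140, minus strand: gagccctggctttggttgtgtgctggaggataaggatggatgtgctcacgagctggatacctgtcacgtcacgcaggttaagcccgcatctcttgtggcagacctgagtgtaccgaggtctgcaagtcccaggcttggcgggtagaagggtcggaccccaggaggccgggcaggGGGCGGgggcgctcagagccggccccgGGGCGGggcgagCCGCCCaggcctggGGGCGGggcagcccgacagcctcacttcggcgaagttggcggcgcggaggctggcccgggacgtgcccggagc
Hes5, chr4:154960673-154960972, plus strand: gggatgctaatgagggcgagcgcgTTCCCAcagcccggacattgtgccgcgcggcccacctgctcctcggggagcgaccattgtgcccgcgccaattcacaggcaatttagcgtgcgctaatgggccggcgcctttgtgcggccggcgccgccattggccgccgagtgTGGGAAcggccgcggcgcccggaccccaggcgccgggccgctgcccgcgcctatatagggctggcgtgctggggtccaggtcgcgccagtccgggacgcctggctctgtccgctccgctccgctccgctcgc
Hey2, chr10:30842734-30843033, minus strand: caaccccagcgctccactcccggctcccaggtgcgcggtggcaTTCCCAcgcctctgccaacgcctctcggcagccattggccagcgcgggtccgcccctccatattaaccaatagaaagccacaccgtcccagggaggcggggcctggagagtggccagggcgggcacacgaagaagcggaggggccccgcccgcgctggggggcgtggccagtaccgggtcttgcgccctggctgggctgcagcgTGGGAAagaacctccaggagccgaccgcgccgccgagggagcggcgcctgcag
On both strands, 0 of the 8 windows of the receptors and ligands held TGGGAA, which 25.6% of all 32851 promoter windows of this length held. The GC box was found in 4 of the 8 windows, those of Notch1, Notch2, Notch3 and Jag2, against 35.7% of all windows. Among 5 relatives with an entry (Hes5, Hes6, Hes7, Hey2 and Nrarp), 3 of 6 windows held TGGGAA, those of Hes5, Hes7 and Hey2. Sites of the 2 motifs cannot share bases, and a match is a description of the sequence only.

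Library totals ran from 11025286 to 21885101 expected counts, so that 3 counts, taken as the floor of detection, equalled 0.137 to 0.272 CPM (read counts scaled to library size and composition). Such floors cover counting error only. Lztr1 measured 83.1 to 93.9 CPM in wild-type MEFs, against 43.8 to 45.8 CPM in Lztr1 +/- MEFs, and matched the label in all 6, and it was the 1 gene called by edgeR's quasi-likelihood test (Benjamini-Hochberg adjusted p = 0.00457). Wild-type culture 16 stood apart from 10 and 12: the chi-square per degree of freedom between their counts was 3.97 for cultures 10 and 12, and 11.6 and 13.5 between each of these and 16. By this measure culture 16 lay nearer to heterozygous cultures 11, 15 and 18, at 6.85, 5.74 and 7.74. Heterozygous culture 11 was at 8.21 and 8.62 from cultures 15 and 18, which were at 4.28 from each other. By the root mean square log2 difference, culture 16 was at 0.430, 0.421 and 0.515 from cultures 11, 15 and 18. It was at 0.466 and 0.498 from wild-type 10 and 12, so on that scale culture 18 was the farthest. Culture 10 was then nearer to heterozygous 11 (0.366) than to wild-type 12 (0.377). Y-linked genes were expressed in cultures 12, 15 and 18, that is in 1 of 3 wild-type and 2 of 3 heterozygous cultures, so sex is not balanced between the genotypes. Cultures 10, 12, 15 and 18 have accessions from a first block and 11 and 16 from a later one, and neither these blocks nor the number runs 10 to 12 and 15 to 18 are named as batches in the labels. The fibroblast marker genes were above the floor in every culture, with the collagen gene Col1a1 highest at 8076 to 11302 CPM. Others were far lower, for example Lum at 41.5 to 121 CPM.

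Hes1 had the highest transcript level of the 10 genes and Notch4 the lowest. Levels were compared between genes in TPM (transcript abundance corrected for gene length). In wild-type cultures Hes1 averaged 64.4 ± 1.3 TPM (SD, n = 3) and Jag1 34.9 ± 5.69 TPM, followed by the receptors Notch3 at 23.2 ± 5.54, Notch2 at 18.8 ± 3.06 and Notch1 at 15.4 ± 1.71 TPM. Hey1 averaged 9.59 ± 1.51 and Heyl 8.34 ± 0.903 TPM, and the least abundant were Jag2 at 2.68 ± 0.177, Dll1 at 2.36 ± 0.771 and Notch4 at 0.987 ± 0.265 TPM. The order of the mean levels was the same in heterozygous cultures, from Hes1 at 55.8 ± 6.34 TPM to Notch4 at 0.793 ± 0.487 TPM. In wild-type cultures the ranges of neighbours in this order overlapped for Notch3 with Notch2, Notch2 with Notch1, Hey1 with Heyl, and Jag2 with Dll1, so these pairs were not separated beyond the spread between cultures. In heterozygous cultures they overlapped for Notch3 with Notch2, Hey1 with Heyl, Heyl with Jag2, and Jag2 with Dll1.

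**Figure D1:**
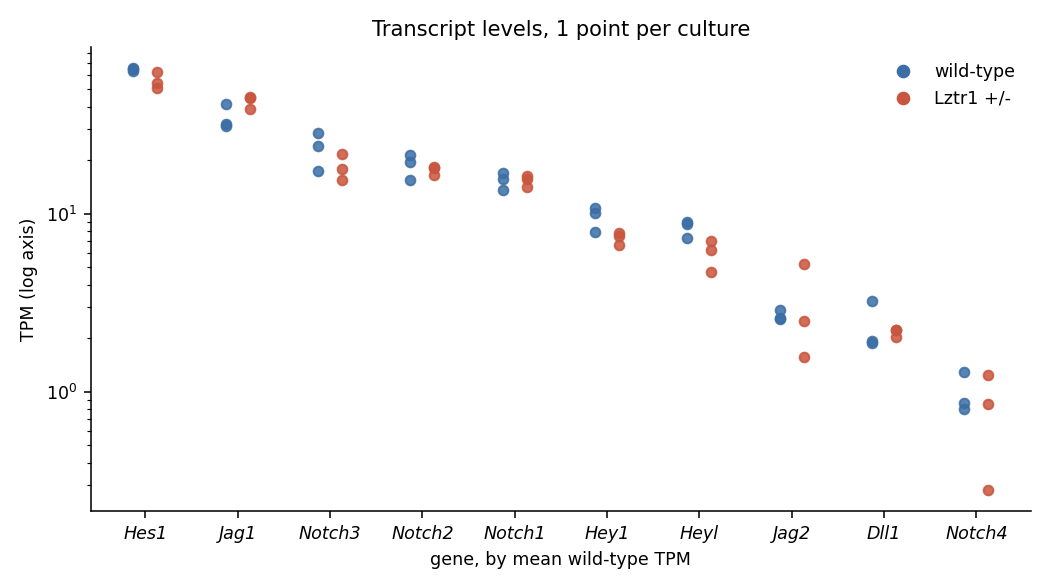
TPM on a log axis for each of the 10 genes, ordered by mean wild-type level, with 1 point per culture (blue wild-type, red Lztr1 +/-). Hes1 and Jag1 lie at the top in both genotypes, the receptors Notch3, Notch2 and Notch1 form a group below them, and Notch4 lies lowest, with heterozygous culture 18 at 0.28 TPM.

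Among relatives outside the 10 genes, the classic targets were near the floor or low. The HES relative Hes6 was higher, at 43.0 ± 5.15 TPM in wild-type and 37.3 ± 5.64 TPM in heterozygous cultures. Hes5, a target in neural cells, had 0 to 5 counts per library, and Hes7, a gene of the segmentation clock, had 2 to 6. The delta-like ligands Dll3 and Dll4 had 2 to 11 and 2 to 15 counts, and none of these 4 genes passed the low-count filter. Hey2 averaged 2.77 ± 0.316 TPM in wild-type and 2.99 ± 0.0666 TPM in heterozygous cultures. Nrarp, which encodes a feedback inhibitor of the Notch complex, averaged 1.297 ± 0.185 and 1.36 ± 0.165 TPM (SD, n = 3 each). Hes5 and Hey2 both hold RBPJ core letters in the windows printed above.

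The comparison of genotypes asks which of these transcripts differ in Lztr1 +/- MEFs. None of the 10 genes passed edgeR's quasi-likelihood test over all 14652 genes, where 0.00683% of genes were called, and the smallest Benjamini-Hochberg adjusted p among them was 0.337 for Hey1. At an unadjusted p under 0.05 were 3 of the 10 (Jag1 with a higher mean, Hey1 and Heyl with lower means in heterozygous cultures), beside 12.2% of all tested genes (5.56% higher and 6.65% lower). The CPM values of the genotypes did not overlap in 1 of the 10 (Hey1, lower), beside 17.7% of all tested genes (7.75% higher and 9.97% lower). Means were lower in heterozygous cultures for 7 of the 10 and higher for 3, beside 50.4% of all genes with a lower mean, and the median log2 difference was -0.18 beside -0.0018 over all genes. With DESeq2, which called 0.764% of genes, 5 of the 10 had no adjusted p and so could not be called, Hey1 and Heyl among them. Of the other 5, 0 were called. At an unadjusted p under 0.05 by DESeq2 were 2 of the 10, Jag1 and Heyl, beside 1310 of all 14652 genes. In bulk cultures fewer cells of a type and less RNA per cell cannot be told apart.

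**Figure D2:**
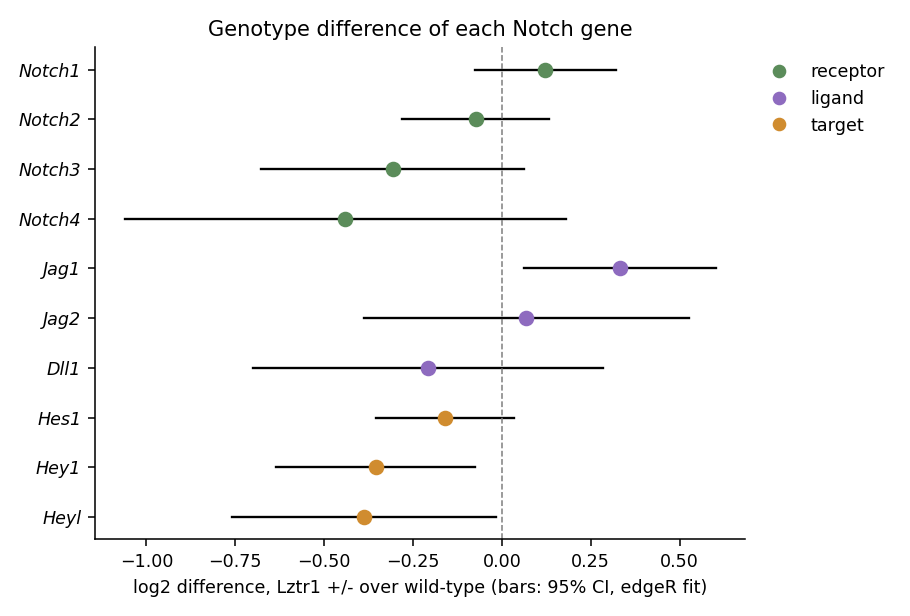
Log2 difference of each gene, Lztr1 +/- over wild-type, with its 95% confidence interval from the edgeR fit, coloured by role. The intervals of Jag1, Hey1 and Heyl lie to 1 side of 0, before any adjustment over the 14652 genes, and those of the other 7 genes span 0.

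Notch1, the receptor found in most tissues, lies on chromosome 2 from 26457903 to 26516663 (minus strand, mm10). It measured 81.2, 89.7 and 71.8 CPM in wild-type MEFs 10, 12 and 16, against 89.5, 82.5 and 92.1 CPM in Lztr1 +/- MEFs 11, 15 and 18. The genotypes overlapped, with wild-type culture 16 lowest and heterozygous culture 18 highest. Its log2 difference was 0.12 (SE 0.086, 95% confidence interval -0.077 to 0.32), with an adjusted p of 0.589 by edgeR. Notch1 overlaps the opposite-strand transcript 0610009E02Rik, which reached at most 4.02 CPM, and the sources used here do not state whether counting used strand.

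Notch2, a broadly expressed receptor on chromosome 3 (98013527 to 98150361, plus strand), measured 122, 130.4 and 102 CPM in wild-type MEFs 10, 12 and 16, against 115, 107 and 114 CPM in Lztr1 +/- MEFs 11, 15 and 18. The heterozygous values all lay within the wild-type range, and the log2 difference was -0.074 (SE 0.090, 95% confidence interval -0.28 to 0.13).

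Notch3, the receptor of vascular mural cells, lies on chromosome 17 from 32120820 to 32166852 (minus strand). Wild-type cultures 10, 12 and 16 stood at 114, 131 and 86.8 CPM, and heterozygous cultures 11, 15 and 18 at 105, 76.7 and 85.7 CPM. The 2 highest cultures were wild-type 10 and 12, while wild-type 16 lay among the heterozygous cultures. Heterozygous over wild-type, the log2 difference came to -0.31 (SE 0.16, 95% confidence interval -0.68 to 0.063), with an adjusted p of 0.473 by edgeR. Within cultures 10 to 12 it was -0.22 and within 15 to 18 it was -0.10, and in the later accession pair (heterozygous 11 against wild-type 16) it was 0.28, against -0.59 in the first block.

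Notch4, known mainly from endothelium, lies on chromosome 17 from 34564268 to 34588503 (plus strand) and had 12 to 33 counts per library. It measured 2.04, 1.68 and 2.19 CPM in wild-type MEFs 10, 12 and 16, against 1.52, 1.70 and 1.09 CPM in Lztr1 +/- MEFs 11, 15 and 18. The ranges met, with heterozygous culture 15 just above wild-type culture 12. The log2 difference was -0.44 (SE 0.27, 95% confidence interval -1.06 to 0.18), the largest in size among the 10 genes and also the one with the largest SE. Its adjusted p by edgeR was 0.529.

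**Figure D3:**
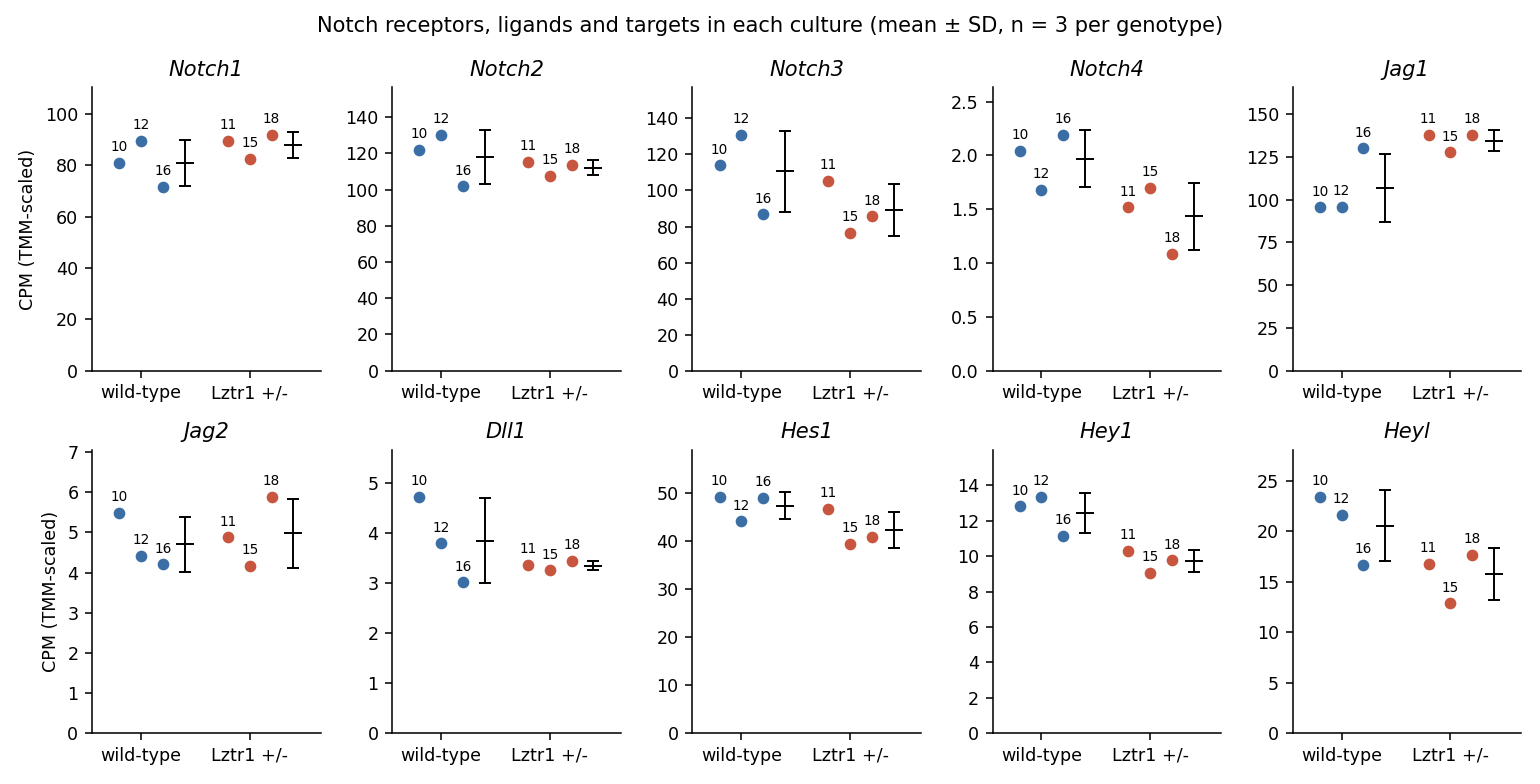
CPM of each gene in each culture, with culture numbers beside the points (blue wild-type, red Lztr1 +/-) and the mean ± SD of each genotype as black bars (n = 3). In Jag1 wild-type culture 16 sits with the heterozygous cultures, above wild-type 10 and 12, and in Hey1 all heterozygous cultures lie below all wild-type cultures.

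Jag1, the most abundant of the 3 ligands among the 10 genes, is on chromosome 2 from 137081456 to 137116644 (minus strand), and its promoter window is printed above. Wild-type cultures 10 and 12 stood at 95.5 and 95.8 CPM and wild-type culture 16 at 130.1 CPM. Heterozygous cultures 11, 15 and 18 stood at 138, 128 and 138 CPM. The genotypes overlapped because wild-type culture 16 lay above heterozygous culture 15. Means were 107 ± 19.9 CPM for wild-type, against 135 ± 5.93 CPM for Lztr1 +/- (SD, n = 3 per genotype), or 125.8% of the wild-type level with a 95% confidence interval of 104% to 152%. This is a difference of 0.33 on the log2 scale (SE 0.12), with an unadjusted p of 0.0223 and an adjusted p of 0.351 by edgeR. Within cultures 10 to 12 the difference was 0.53 and within 15 to 18 it was 0.029. Culture 11 is the only heterozygous culture of the first run and culture 16 the only wild-type culture of the second. Cultures 11 and 16 also make up the later block. For any gene, a change of the genotype difference between runs therefore cannot be told apart from a shift between blocks. A term for the difference between these runs was -0.50, with an unadjusted p of 0.00121 and an adjusted p of 0.112 by edgeR over 14652 genes, of which 0.328% were called. At an unadjusted p under 0.05 this term had 2 of the 10 genes, beside 13.4% of all genes. The other was Notch2, with log2 differences of -0.13 within cultures 10 to 12 and 0.12 within 15 to 18 and an adjusted p of 0.360 for the term by edgeR.

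The other ligands were low in all cultures. Jag2, on chromosome 12 from 112907819 to 112929776 (minus strand), measured 5.49, 4.41 and 4.21 CPM in wild-type MEFs 10, 12 and 16, against 4.88, 4.17 and 5.88 CPM in Lztr1 +/- MEFs 11, 15 and 18. Dll1, the delta-like ligand that acts in somites and muscle progenitors, lies on chromosome 17 from 15367354 to 15376872 (minus strand). Its values, in the same order, were 4.72, 3.80 and 3.02 CPM in wild-type MEFs, against 3.36, 3.25 and 3.44 CPM in Lztr1 +/- MEFs. Both overlapped between the genotypes, and the heterozygous values of Dll1 all lay between wild-type cultures 16 and 12. Jag2 had 46 to 106 counts per library and a log2 difference of 0.068 (SE 0.20, 95% confidence interval -0.39 to 0.53). Dll1 had 33 to 72.5 counts and a log2 difference of -0.21 (SE 0.21, 95% confidence interval -0.70 to 0.28), which was -0.020 without wild-type culture 10 and -0.35 without wild-type culture 16. The adjusted p by edgeR was 0.915 for Jag2 and 0.714 for Dll1.

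Hes1, the best known Notch target, which also responds to other signals, is on chromosome 16 from 30064384 to 30067796 (plus strand). It measured 49.2, 44.1 and 49.0 CPM in wild-type MEFs 10, 12 and 16, against 46.7, 39.5 and 40.9 CPM in Lztr1 +/- MEFs 11, 15 and 18. The highest heterozygous culture, 11, lay above the lowest wild-type culture, 12. The log2 difference was -0.16 (SE 0.084, 95% confidence interval -0.35 to 0.034), with an adjusted p of 0.475 by edgeR. Within cultures 10 to 12 it was 0.0033 and within 15 to 18 it was -0.29.

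On the CPM scale Hey1 alone of the 10 had every heterozygous culture below every wild-type culture, beside 9.97% of all tested genes. The gene, a HES-related repressor on chromosome 3 from 8663359 to 8667256 (minus strand), measured 12.8, 13.3 and 11.2 CPM in wild-type MEFs 10, 12 and 16, against 10.3, 9.05 and 9.77 CPM in Lztr1 +/- MEFs 11, 15 and 18. Wild-type culture 16 was the lowest of its group and nearest to the heterozygous cultures. Means were 12.4 ± 1.14 CPM for wild-type, against 9.71 ± 0.633 CPM for Lztr1 +/- (SD, n = 3 per genotype), or 78.2% of the wild-type level with a 95% confidence interval of 64.4% to 94.9%. This is -0.36 on the log2 scale (SE 0.12), with an unadjusted p of 0.0192 and an adjusted p of 0.337 by edgeR.

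Heyl, the third repressor of the set, lies on chromosome 4 from 123233556 to 123249875 (plus strand). Wild-type cultures 10, 12 and 16 stood at 23.4, 21.6 and 16.6 CPM, and heterozygous cultures 11, 15 and 18 at 16.7, 12.9 and 17.6 CPM. Wild-type culture 16 lay below heterozygous cultures 11 and 18, so the genotypes overlapped. The log2 difference was -0.39 (SE 0.16, 95% confidence interval -0.76 to -0.017), with an unadjusted p of 0.0426 and an adjusted p of 0.393 by edgeR. It was -0.42 within cultures 10 to 12 and -0.14 within 15 to 18, and 0.0096 in the later accession pair.

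On the TPM scale Hes1, Hey1 and Heyl each reached an exact two-sided permutation p of 0.1, the smallest that 3 against 3 cultures can give, so this test could not pass 0.05. Jag1 gave an exact p of 0.2, Notch3 0.3, Notch2 0.5 and Notch4 0.6, and Notch1, Jag2 and Dll1 each gave 1. In TPM the genotypes did not overlap in these 3 of the 10 genes, each lower in heterozygous cultures, beside 16.4% of all tested genes (9.29% lower). Hes1 and Heyl overlapped in CPM. For Hes1 the lowest wild-type and the highest heterozygous culture stood at 62.95 and 62.88 TPM. For Heyl they stood at 7.3 and 7.0 TPM, with a deposited effective length of 3564 bases in wild-type culture 16 and 4131 to 4334 bases in the others.

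Leaving out wild-type culture 16 changed the call of 1 gene. Without that culture edgeR called 1 of the 10 genes, Jag1, as higher, with a log2 difference of 0.50 and an adjusted p of 0.00642, beside 5.93% of all 15113 genes tested in that fit (3.69% higher and 2.24% lower). Notch3 (log2 difference -0.45), Hey1 (-0.42) and Heyl (-0.51) had adjusted p-values of 0.0859, 0.0882 and 0.0797 there. The wild-type cultures left, 10 and 12, have both a number run and an accession block in common, and in that fit genotype cannot be told apart in full from either. With the run as a further term, an alternative chosen after seeing the data, Jag1 differed by 0.53 with an adjusted p of 0.0205 by edgeR, beside 1.93% of genes called. Without any 1 of the other 5 cultures 0 of the 10 genes were called, and Jag1 then differed by 0.26 to 0.37.

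**Figure D4:**
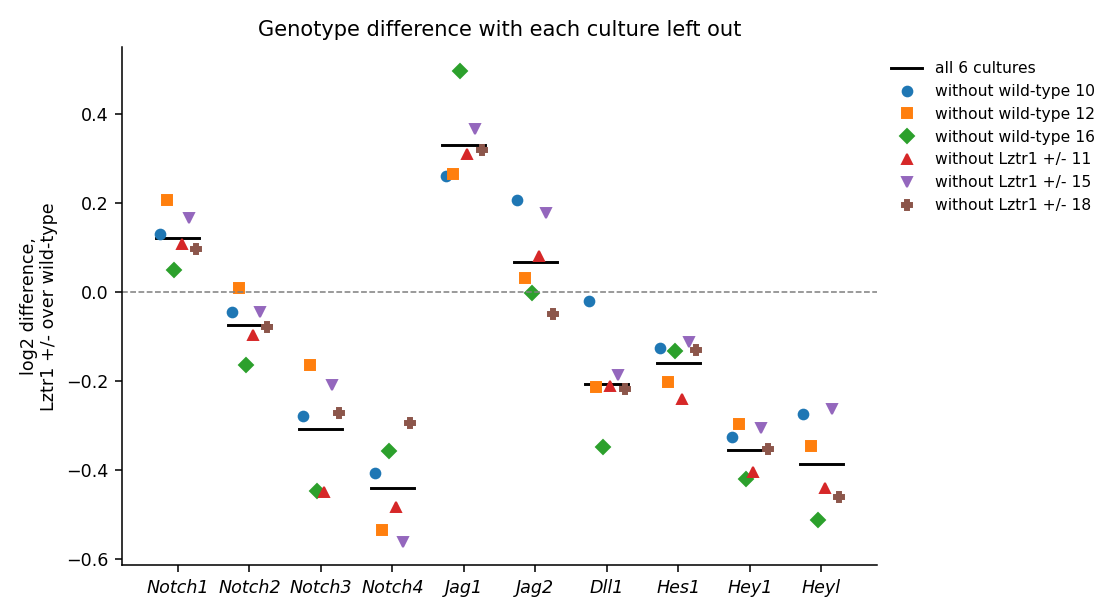
Log2 difference of each gene, Lztr1 +/- over wild-type, in the fit of all 6 cultures (black bars) and with each culture left out in turn (symbols). Jag1 and Notch1 stay above 0 and Notch3, Notch4, Dll1, Hes1, Hey1 and Heyl stay below 0 in all 6 of these fits, and the green diamonds, without wild-type culture 16, lie farthest from 0 for Jag1, Notch2, Dll1, Hey1 and Heyl.

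The other genes of the pathway were read from a list of 55, of which 51 passed the low-count filter. None of the 51 was called by edgeR over all genes, with 26 higher and 25 lower means in heterozygous cultures and a median log2 difference of 0.016. At an unadjusted p under 0.05 were 7 of the 51 (13.7%, beside 12.2% of all genes), 1 higher and 6 lower, and the CPM values of the genotypes did not overlap in 8 of them (15.7%, beside 17.7%).

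Receptor cleavage is represented by the ADAM proteases, furin and the gamma-secretase subunits, and 0 of these 10 genes had an unadjusted p under 0.05. The smallest was that of the gamma-secretase subunit gene Psenen, at 28.8, 34.0 and 34.6 CPM in wild-type MEFs 10, 12 and 16, against 29.0, 28.6 and 27.0 CPM in Lztr1 +/- MEFs 11, 15 and 18 (log2 difference -0.20, SE 0.089, adjusted p = 0.423 by edgeR).

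Of 6 genes for the sugars on Notch EGF repeats, which tune ligand choice, 2 had an unadjusted p under 0.05, both lower and without overlap, beside 6.65% of all genes lower at that p and 9.97% lower without overlap. Pofut1, the O-fucosyltransferase, measured 77.4, 68.8 and 67.0 CPM in wild-type MEFs, against 61.3, 64.5 and 55.4 CPM in Lztr1 +/- MEFs, in the order used above (log2 difference -0.23, SE 0.080). Rfng, the fringe enzyme that extends this fucose, stood at 27.2, 25.0 and 25.8 CPM and at 23.0, 22.6 and 22.2 CPM (log2 difference -0.20, SE 0.074). The adjusted p by edgeR was 0.337 for Pofut1 and 0.361 for Rfng.

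Among 14 genes for endocytosis and ubiquitination of ligands and receptors, 3 ubiquitin ligase genes had an unadjusted p under 0.05, each lower and without overlap, beside the same shares of all genes. Mib2, which acts on ligands, measured 31.6, 31.9 and 23.5 CPM in wild-type MEFs 10, 12 and 16, against 23.0, 22.3 and 21.1 CPM in Lztr1 +/- MEFs 11, 15 and 18 (log2 difference -0.39, SE 0.12). Dtx3, of the Deltex family, stood at 81.7, 82.2 and 74.2 CPM and at 69.9, 58.2 and 59.2 CPM (log2 difference -0.34, SE 0.085). Neurl1b, a neuralized ligase for ligands, stood at 3.52, 3.18 and 3.11 CPM and at 2.07, 1.77 and 2.62 CPM (log2 difference -0.62, SE 0.23). Their adjusted p-values by edgeR were 0.321, 0.313 and 0.361.

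In the nuclear complex and its corepressors, 2 of 16 genes had an unadjusted p under 0.05, beside 12.2% of all genes. Both encode TLE corepressors, and they differed in opposite directions. Tle2 had the widest difference of the list, at 16.3, 18.5 and 13.8 CPM in wild-type MEFs 10, 12 and 16, against 11.3, 9.40 and 7.42 CPM in Lztr1 +/- MEFs 11, 15 and 18. Its log2 difference was -0.77 (SE 0.18, adjusted p = 0.313 by edgeR). Tle4 stood at 29.5, 30.2 and 30.8 CPM and at 35.2, 32.6 and 33.8 CPM, a log2 difference of 0.17 (SE 0.067, adjusted p = 0.377 by edgeR). Rbpj, the DNA-binding subunit, named after its values were seen, stood at 142, 148 and 180.1 CPM and at 168, 183 and 171 CPM, with wild-type culture 16 again among the heterozygous cultures. Without culture 16 edgeR called 4 of the pathway genes, Mib2, Dtx3 and Tle2 as lower and Rbpj as higher, at adjusted p-values of 0.0142, 0.0435, 0.0363 and 0.0355, beside 5.93% of all genes. Without culture 16 genotype cannot be told apart in full from run or block. With the number run as a further term, genotype rested on heterozygous culture 11 alone, so that fit cannot test these calls. The log2 differences there were -0.46 for Mib2, -0.23 for Dtx3 and -0.61 for Tle2, against -0.51, -0.38 and -0.86 without the term.

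The remaining ligands and family members had no unadjusted p under 0.05. The nearest were the delta-like gene Dlk2, with a log2 difference of 0.34 (SE 0.23), and the HES relative Hes6, with -0.19 (SE 0.12). Dlk1, a non-canonical ligand and growth regulator, was far more abundant than any of the 10 genes, at 838 ± 120.2 TPM in wild-type, against 709.7 ± 74.6 TPM in Lztr1 +/- MEFs (SD, n = 3 per genotype).

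**Figure D5:**
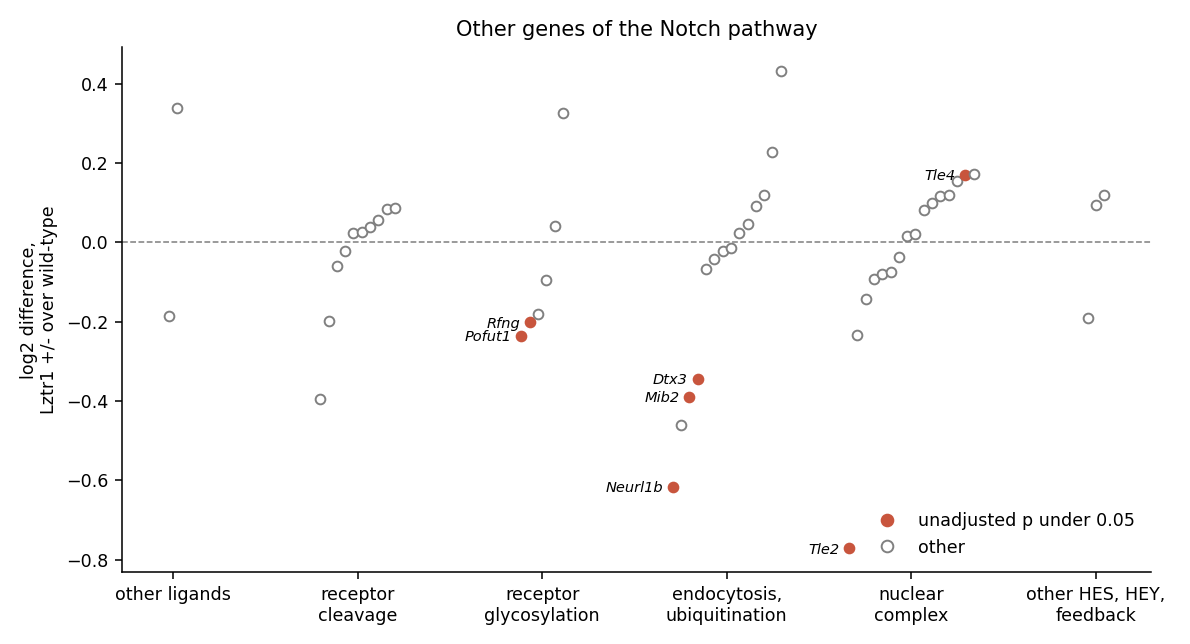
Log2 difference, Lztr1 +/- over wild-type, of the 51 other pathway genes that passed the low-count filter, 1 point per gene, grouped by role. Filled points have an unadjusted p under 0.05, before adjustment over all genes, and 6 of these 7 lie below 0.

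Markers of cells that use these receptors were read beside them. Of 10 endothelial markers, for cells that carry Notch4, 9 were tested and 0 were called by edgeR. An unadjusted p under 0.05 was found for 2 of the 9 (Kdr higher, Egfl7 lower), beside 12.2% of all genes. The summed level of the 10 was 39.3 to 50.005 CPM in wild-type MEFs, against 41.2 to 56.5 CPM in Lztr1 +/- MEFs. Of 9 mural cell markers, for cells that carry Notch3, 7 were tested and 0 were called. An unadjusted p under 0.05 was found for 2 of the 7 (Mcam higher, Pdgfrb lower), beside the same 12.2%. The mural sums were 663 to 747 CPM in wild-type and 697 to 745 CPM in Lztr1 +/- MEFs, and Higd1b was at 0 in every library. Of 8 skeletal muscle markers 6 were tested and 0 called, with 0 at an unadjusted p under 0.05 and none at 0 in all libraries. The mean was lower in heterozygous cultures for all 6, beside 50.4% of all genes. Their sum was 430.0, 397 and 272 CPM in wild-type MEFs 10, 12 and 16, against 360.5, 249.8 and 324 CPM in Lztr1 +/- MEFs 11, 15 and 18. Notch3, Hey1 and Heyl each had their 2 highest cultures (wild-type 10 and 12) and their lowest (heterozygous 15) in the same places. This likeness was picked out after the values were seen. Of 10 fibroblast markers all were tested, 0 were called and none was at 0 in all libraries, and 7 had a lower mean. At an unadjusted p under 0.05 were 4 of them, Col1a1, Dcn, Lum and Twist1, all lower, beside 12.2% of all genes (6.65% lower). The proteoglycan gene Dcn was at 159, 153 and 79.3 CPM in wild-type MEFs, against 84.8, 84.7 and 80.5 CPM in Lztr1 +/- MEFs, in the same order, and its relative Lum at 121, 114 and 59.5 CPM, against 65.7, 62.4 and 41.5 CPM. In both genes, chosen after their values were seen, wild-type culture 16 was below wild-type 10 and 12. The same held for Notch1, Notch2, Notch3, Jag2, Dll1, Hey1 and Heyl, but not for Notch4, Jag1 and Hes1. The fibroblast sums were 30947, 31114 and 24809 CPM, against 24801, 27526 and 26145 CPM. Of 6 erythroid markers 4 were tested, with 0 called and 0 at an unadjusted p under 0.05. Their sums were 27.7, 19.9 and 82.5 CPM in wild-type MEFs, against 34.4, 73.4 and 84.5 CPM in Lztr1 +/- MEFs, in the same order, so that wild-type culture 16 lay with heterozygous cultures 15 and 18. None of the erythroid markers was at 0 in all libraries. The part of these markers in the differences of the 10 genes was not tested.

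The genes whose profile over the 6 libraries lay nearest to that of a member were found for the 3 genes with the widest differences, by the root mean square difference of centred log2 CPM among up to 12871 protein-coding genes. For Hey1 they were Hint2 (0.032), Txnip, which encodes a thioredoxin-binding protein (0.032), and Tctn3 (0.039). For Heyl they were the RAS-related GTPase gene Rerg (0.052), the GABA transaminase gene Abat (0.063) and chordin, Chrd, a BMP antagonist (0.065). For Notch4 they were Mfsd3 (0.078), Rnf32 (0.078) and Armcx5 (0.083). The SD of the members themselves over the 6 libraries was 0.22 for Hey1, 0.30 for Heyl and 0.33 for Notch4 on the same scale, and with 6 libraries such likeness is a description only.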

How the data were processed

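RNA sequencing libraries from 6 MEF cultures (TruSeq kit, per the labels' protocols) were analysed from 1 deposited table each. The deposited values are RSEM gene estimates per the file headers, and the submitters' processing notes name RSEM 1.3.1, DESeq2 and mm10. Aligner, annotation release and strand setting: not given in the sources used here. Each deposited expected count is an estimated number of reads per gene, and 7.53% to 8.80% of them per library were not whole. They were rounded. The deposited TPM values, scaled by the authors for effective length, gave levels between genes, the exact permutation tests and 1 alternative. The deposited FPKM values were not used. Deposited effective lengths, in bases and with no other unit, served as an offset in 1 alternative. Symbols and coordinates came from GENCODE M21 (GRCm38) by Ensembl number, which matched 51633 of 51826 genes.

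Counts were filtered with filterByExpr, scaled with TMM factors and compared with edgeR 4.0.16 in R 4.3.3 (quasi-likelihood F test, genotype only, 6 libraries, Benjamini-Hochberg over 14652 genes, call at an adjusted p under 0.05). The SE is the log2 difference divided by the square root of F, and intervals are at 95%. The biological coefficient of variation was 11.3%. Alternatives were DESeq2 1.42.0, limma 3.58.1 on log2(TPM + 1), other scalings and filters, a length offset, terms for number run, accession block and Y-linked level, and each culture left out. The steps were tested on simulated counts. The 10 members and the lists were chosen with earlier results of these data known. Named beside the members are, in each role of the pathway list, genes with an unadjusted p under 0.05 or else the smallest p, some relatives by level, and for the 3 members with the largest difference the 3 nearest profiles among protein-coding genes with a mean of at least 1 TPM. Marker lists covered fibroblast, endothelial, mural, skeletal muscle, epithelial, neural and Schwann, macrophage and blood, and erythroid cells. The coding end of Hey1 is not reported here.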

Additional observations from a re-analysis of the deposited data

How the results depend on the processing

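Over 17 alternatives for each of the 10 genes, 157 of the 165 values with an adjusted p kept their direction and their side of the threshold, and 5 DESeq2 values without an adjusted p kept their direction. Jag1 passed the threshold in the 2 fits without wild-type culture 16 (0.50, and 0.53 with the number run as a term). With the run term, genotype rested on heterozygous culture 11 alone, so that fit cannot test the call. Direction changed in 6 values: Notch1 was -0.0014 by limma on log2(TPM + 1), Notch2 was 0.0084 without wild-type culture 12, Jag2 was -0.0033 without wild-type culture 16, -0.050 without heterozygous culture 18 and -0.027 without culture 16 with the run as a term, and Hes1 was 7.0e-05 in that last fit. With 1 culture left out, Notch2 ran from -0.17 (without wild-type 16) to 0.0084, Jag2 from -0.050 to 0.21 (without wild-type 10), Dll1 from -0.35 (wild-type 16) to -0.020 (wild-type 10), Notch1 from 0.048 (wild-type 16) to 0.21 (wild-type 12), Notch3 from -0.45 (heterozygous 11, likewise wild-type 16) to -0.16 (wild-type 12) and Hes1 from -0.24 (heterozygous 11) to -0.11. The cause was not tested. The number of the 10 genes called was 0 to 1 and that of the pathway genes 0 to 4 when 1 culture was left out. Over all genes edgeR called 1, against 0 to 896 with 1 culture left out, 112 by DESeq2, 32 without a low-count filter, 0 with the length offset, 0 by limma and 291 without culture 16 with the run as a term. Genes at an unadjusted p under 0.05 numbered 1626 with the offset and 1693 by limma. The scalings tried moved the median of all genes by under 0.1 on the log2 scale. Within number runs and accession blocks, where no test was made, 32 of 40 values had the sign of the whole comparison. These values split the same 6 cultures, once by run and once by block, so their signs are not independent of it. Notch4, Jag2 and Dll1 had as few as 12, 46 and 33 counts in a library, and the part of depth in their spread was not tested. No paired analysis was possible because the genotypes share no replicate number.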

Other observations

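Effective lengths in the deposited tables, which follow the transcripts that RSEM assigned to a gene, varied between cultures for several of the 10 genes. For Notch1 they were 8593, 8926 and 8255 bases in wild-type cultures 10, 12 and 16 and 9277, 9285 and 9269 bases in heterozygous cultures 11, 15 and 18. These lengths did not overlap between the genotypes, but the share of all genes with such a split was not determined. The log2 difference of Notch1 was 0.12 on counts and 0.018 with the length offset. For Jag2 they ran from 1851 bases in heterozygous culture 18 to 4252 bases in heterozygous culture 15, where the TPM values were 5.21 and 1.56 and the CPM values 5.88 and 4.17. For Notch4 they ran from 2160 bases in heterozygous culture 15 to 6384 bases in heterozygous culture 18, with 1.25 and 0.28 TPM and with 24 and 12 counts.

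The other marker lists, read once, had 0 genes called by edgeR. At an unadjusted p under 0.05 were 0 of 7 epithelial markers, 1 of 7 tested neural and Schwann markers (Tubb3, higher) and 0 of 6 macrophage and blood markers, beside 12.2% of all genes. The summed epithelial level was 103 to 183 CPM in wild-type and 91.4 to 242 CPM in heterozygous cultures. The sums were 128 to 214 and 195 to 245 CPM for neural and Schwann markers, and 141 to 211 and 120.0 to 232 CPM for macrophage and blood markers.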
